A study of Spirodela polyrhiza and Pistia stratiotes and Colocasia esculenta with 79 samples.

Results

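Taro (Colocasia esculenta) is an aroid grown for its starchy corm, and 150 of its transcripts were selected because their level peaked in the petiole. The choice was made from measured values. The level of a region was the mean of log2(rescaled TPM + 1) over its libraries, and the score of a transcript was its Petiole level minus the highest level among Apical, Basal and Sheath. TPM is a transcript's level per unit of its length, as a share of the library, and it was rescaled between libraries by the median of ratios over the 11991 transcripts above 0 in all 17 libraries. Of the 19418 transcripts in the taro table, 1197 had a score of at least 1 and a mean of at least 10 rescaled TPM in Petiole, and the 150 with the highest scores were taken. All of the differences between Petiole and the other regions are therefore descriptions and carry no test.

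The petiole is the stalk that carries the leaf blade. In taro it is long and fleshy, and it holds vascular strands, supporting collenchyma and large air spaces. It conducts water and minerals to the blade and sugars away from it, and its lower end widens into a sheath that wraps the younger leaves.

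Polyadenylated RNA of 17 taro libraries was sequenced, from the regions labelled Apical (4 libraries), Basal (4), Petiole (6) and Sheath (3), within a series of 79 libraries from 4 aroid species. Apical and Basal RNA came from leaf-derived tissue and are called the blade libraries here. Blade RNA was prepared from 1 portion of the powdered tissue. For Petiole and Sheath, RNA of 3 portions was combined and an additional clean-up kit was used. Preparation and region therefore cannot be told apart between blade and Petiole, but Petiole and Sheath were prepared alike. The labels give no strain, age, treatment or growth condition for taro and name the libraries biological replicates without saying which plants they came from, so p-values measure only the spread between these libraries.

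The identifiers (EVM numbers) come with no gene names in the sources used here, so the members are described by identifier and level, the region labels were not checked against markers, and no sequence is shown. The 150 members carried 150 distinct gene identifiers. In 5 of them the isoform number was not 1, and the table holds a single transcript for each gene identifier. How many reads stand behind a TPM value is not recorded, which leaves its precision unknown, and a value listed at 0 may be a failed estimate. The deposited columns summed to between 999144 and 999792. A single transcript took 28.5% to 31.3% of the TPM in the Sheath libraries, 14.9% in Apical 4, 12.0% in Basal 4 and 2.18% to 5.54% in the other libraries. The factors by which columns were divided were 0.364 to 0.794 in Sheath, 0.895 to 1.27 in the blade and 1.09 to 1.47 in Petiole.

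**Figure D1:**
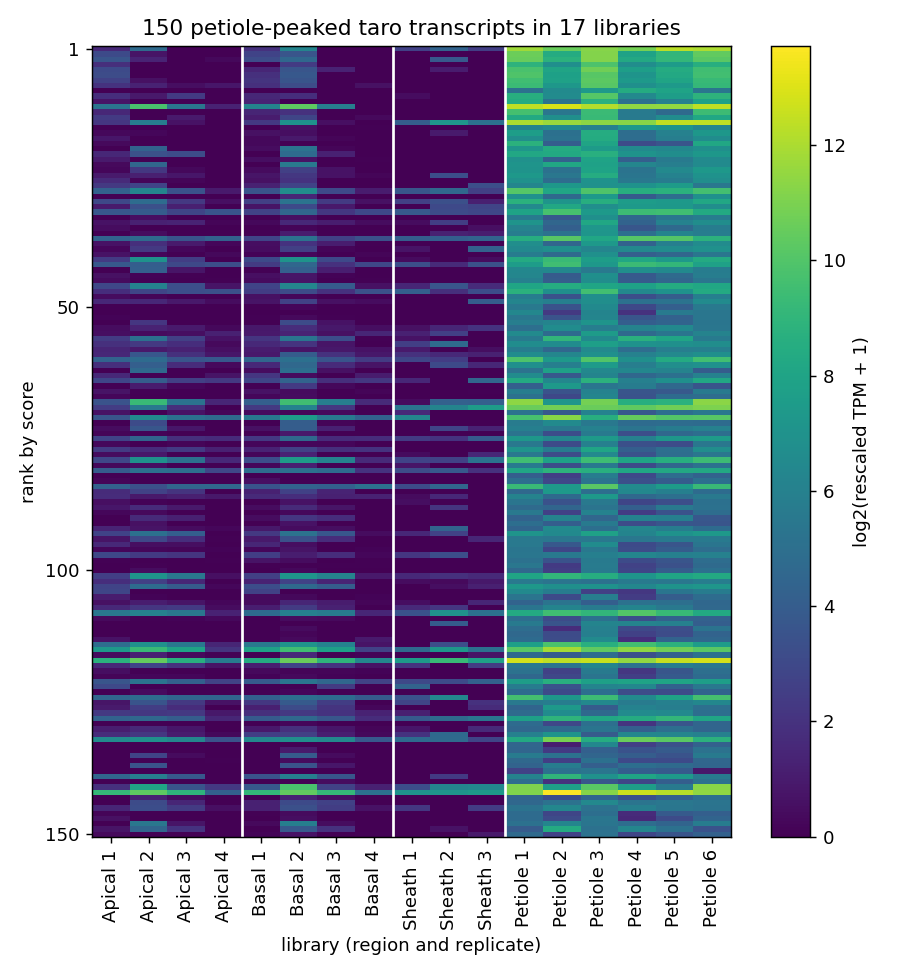
Level of the 150 members, as log2(rescaled TPM + 1) by colour, with 1 row per member from the highest score at the top and 1 column per library, grouped by region. The 6 Petiole columns are bright throughout, Basal 2 and Apical 2 are the brightest of the 8 blade columns, and Apical 4 and Basal 4 are nearly dark.

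The members' scores ran from 3.57 to 8.27 with a median of 4.24, in log2 units. Their mean level in Petiole ran from 15.9 to 5729 rescaled TPM with a median of 64.9. Of the 150, 61 had a mean of at least 100 rescaled TPM, 12 of at least 1000, and 60 were under 50. The set thus spans a wide range above the minimum of 10, with 13 members among the 100 most abundant transcripts of Petiole and 55 among the 1000 most abundant.

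The lower edge of the set fell on a smooth slope. The last members were EVM0018821.1, EVM0024749.1 and EVM0023445.1, with scores of 3.60, 3.59 and 3.57. The first transcripts outside were EVM0006472.1, EVM0002237.1 and EVM0021684.1, with scores of 3.56, 3.55 and 3.55. The Petiole means were 41.4, 84.0 and 17.1 rescaled TPM inside the edge and 28.5, 27.6 and 26.1 outside it.

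**Figure D2:**
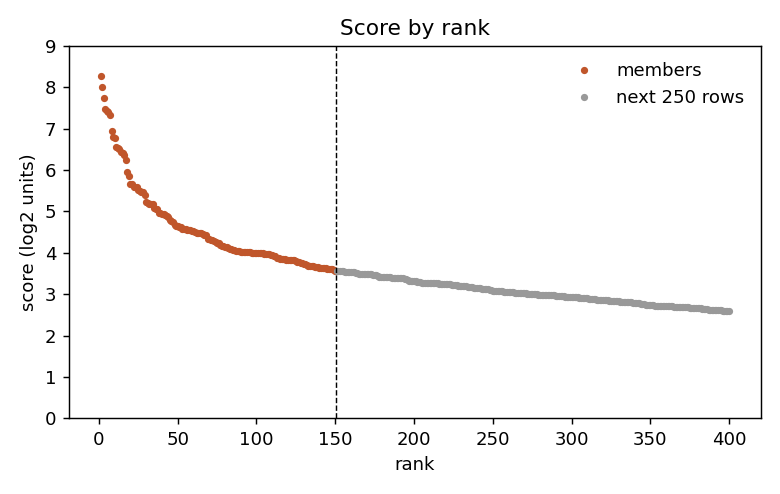
Score in log2 units against rank for the 150 members and the next 250 transcripts, with a dashed line at the edge of the set. Scores fall steeply over the first ranks, from 8.27, and pass the edge between 3.57 and 3.56 without a step.

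Summed over the 150 members, the level in the 6 Petiole libraries was 54873, 58764, 57846, 37473, 45633 and 56223 rescaled TPM, a mean of 51802 ± 8454 (SD, n = 6). The Apical libraries held 1787, 6899, 1826 and 263 (2694 ± 2896, SD, n = 4), the Basal libraries 1739, 9040.1, 2058 and 277 (3279 ± 3919, SD, n = 4), and the Sheath libraries 719, 1798 and 1064 (1194 ± 551, SD, n = 3). Every Petiole library lay above every other library, and the SD was above the mean in both blade regions and well below it in Petiole. Replicate 2 was highest and replicate 4 lowest in both blade regions. As a share of all deposited TPM the members made up 4.48% to 8.01% of Petiole, 0.0258% to 0.852% of Apical, 0.0266% to 1.15% of Basal and 0.0462% to 0.0844% of Sheath. In such bulk samples, fewer cells of a type and less RNA per cell cannot be told apart.

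**Figure D3:**
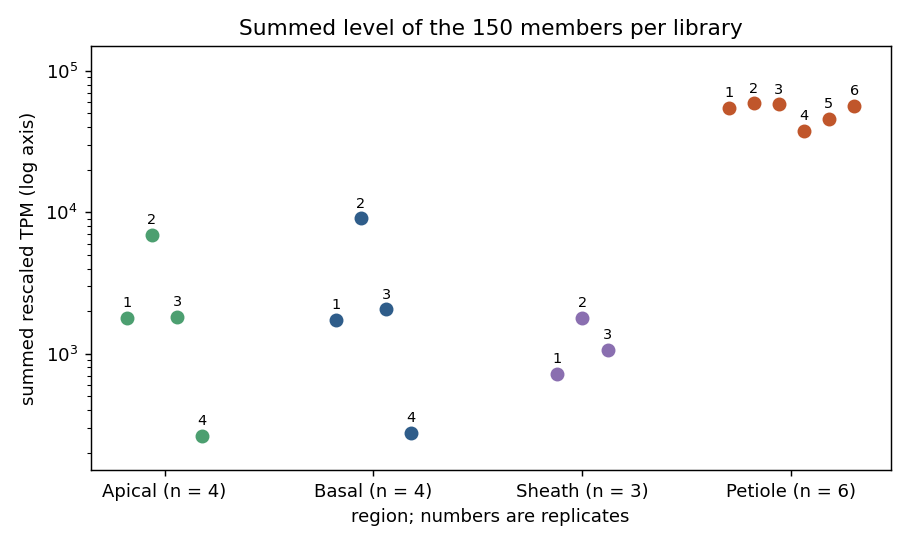
Summed rescaled TPM of the 150 members in each library on a log axis, by region, with the replicate number above each point. Petiole libraries lie between 37473 and 58764, and the points of replicate 2 and replicate 4 mark the top and the bottom of both blade regions.

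The lowest Petiole library was above all 11 other libraries for 139 of the 150 members (92.7%), against 6.91% of the 18606 transcripts tested, a contrast that the choice of members used and from which nothing is read. The 11 members that overlapped did so mostly through Basal 2, which was the highest non-Petiole library for 6 of them. One was EVM0027017.1, with 2663, 146, 1864, 387, 454 and 2569.8 rescaled TPM in Petiole 1 to 6. It stood at 634 in Apical 2 and 721 in Basal 2, above 3 Petiole libraries, while the other 6 blade libraries were between 1.75 and 56.2 and Sheath between 0.323 and 18.2.

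The transcript with the highest score, EVM0026502.1, had 3459, 1549, 2392, 1869, 4976 and 4185 rescaled TPM in Petiole 1 to 6. It had 1.94, 25.6, 0 and 0 in Apical, 2.88, 71.7, 0 and 0 in Basal, and 5.26, 19.9 and 4.79 in Sheath. The lowest Petiole library was Petiole 2 at 1549, the highest other library was Basal 2 at 71.7, and replicates 3 and 4 of both blade regions were listed at 0.

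Of the 9 transcripts that followed by score, 8 shared their highest and lowest Petiole libraries. The second, EVM0000784.1, had 1583, 352, 2335, 236, 517 and 1386 rescaled TPM in Petiole 1 to 6. In the blade it reached 7.36 in Apical 1, 0.640 in Apical 2, 5.75 in Basal 1 and 11.4 in Basal 2, and it was listed at 0 in replicates 3 and 4 and in all Sheath libraries. Petiole 3, 1 and 6 were thus high and Petiole 4 and 2 low.

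The third, EVM0013542.1, had 1503, 428, 2331, 313, 534 and 1198 rescaled TPM in Petiole, at most 23.1 in a blade library and 13.0 in Sheath 2 against 0 in the other Sheath libraries. EVM0020255.1 had 475, 111, 932, 105, 185 and 381 in Petiole, 2.62 in Apical 1, 4.32 in Basal 2 and 0 in the other 9 libraries. Both showed the same Petiole order as EVM0000784.1, which was library 3, 1, 6, 5, 2 and 4 from high to low. EVM0021963.1 had 863, 255, 1689, 203, 353 and 718 in Petiole and at most 11.4 in the blade. EVM0027070.1 had 995, 223, 1145, 134, 308 and 769 in Petiole and at most 12.7 in the blade. EVM0014280.1 had 739, 227, 1246, 169, 261 and 612 in Petiole and at most 10.7 in the blade. These 3 kept that order too, and of them only EVM0021963.1 was above 0 in a Sheath library, at 1.06. EVM0011457.1 had 651, 153.4, 1151, 115, 169 and 569 in Petiole, and EVM0027289.1 had 381, 96.7, 1106, 88.1, 201 and 461, with no blade library above 8.01 for either.

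As ratios of rescaled TPM to EVM0000784.1 within a library, these transcripts kept close proportions while their own levels moved. The ratio of EVM0013542.1 stayed between 0.864 and 1.33 over the 6 Petiole libraries, that of EVM0027070.1 between 0.490 and 0.635, and that of EVM0011457.1 between 0.327 and 0.493. EVM0020255.1, EVM0021963.1, EVM0014280.1 and EVM0027289.1 ranged from 0.275 to 0.446, 0.518 to 0.861, 0.441 to 0.715 and 0.241 to 0.474.

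The ninth by score, EVM0020129.1, followed another order, with 33.9, 94.1, 163, 346, 244 and 40.1 rescaled TPM in Petiole 1 to 6, highest in Petiole 4. It was listed at 0 in all 11 other libraries. The other members listed at 0 there were EVM0012047.1, EVM0017648.1, EVM0005742.1 and EVM0023611.1, named for that count after their values were seen. EVM0012047.1 had 79.4, 3.86, 72.9, 2.92, 48.1 and 40.3 in Petiole, and EVM0023611.1 had 5.47, 33.1, 38.7, 16.1, 13.9 and 0.812. The highest value among these 5 was 346 rescaled TPM, and all were above 0 in each Petiole library, as was every member.

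The most abundant members had their largest blade levels in replicate 2. EVM0016941.1, with the highest Petiole mean, had 7049.8, 5229, 6073, 2836, 5864 and 7322 rescaled TPM in Petiole. It had 426, 1407, 406 and 54.0 in Apical, 351, 1546, 481 and 77.6 in Basal, and 185, 607 and 228 in Sheath. It was therefore present in every library, at a score of 3.86.

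EVM0010062.1 had 2229, 13492, 2358, 6561, 4801 and 2803 rescaled TPM in Petiole, with 573, 1252, 487 and 17.5 in Apical, 545, 1369, 570.4 and 31.9 in Basal, and 128, 142 and 174 in Sheath. Petiole 2 and 4 were the highest here, the reverse of the high-scoring transcripts above. EVM0015590.1 had 5399.7, 7575, 4461, 2807, 2840.4 and 5437 in Petiole, 38.3, 865, 41.5 and 1.47 in Apical, and 70.7, 1293, 56.8 and 0 in Basal. It was listed at 0 in all Sheath libraries. EVM0007570.1 had 4159, 3176, 2554, 2479.9, 5736 and 5394 in Petiole and, unlike EVM0015590.1, more in Sheath (15.8, 147.9 and 32.4) than in most blade libraries, where Apical 2 held 56.0, Basal 2 held 126 and the other 6 at most 3.81. EVM0026502.1, described first, was the remaining one of the 5 most abundant.

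The members varied widely among the Petiole libraries. The SD of log2(rescaled TPM + 1) over the 6 Petiole libraries had a median of 1.07 over the 150 members, with a range of 0.06 to 2.61, against a median of 0.42 over the other 8096 tested transcripts with a Petiole mean of at least 10 rescaled TPM. The highest Petiole library was a median of 6.81 times the lowest in rescaled TPM, and this fold range was at least 10 for 44 members and under 2 for 11.

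The steadiest member was EVM0000168.1, with 45.2, 43.1, 44.5, 42.9, 46.8 and 47.0 rescaled TPM in Petiole, at most 9.12 in the blade (Basal 2) and 1.81 in Sheath 3 alone. EVM0024886.2 had 1509, 1811, 1514, 1331, 1709 and 2071 in Petiole, and EVM0012137.1 had 271, 366, 269, 233, 348 and 283. None of these 3 varied as much as 2-fold in Petiole, yet each was highest in Apical 2 within Apical and in Basal 2 within Basal.

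The most variable was EVM0014157.1, with 438, 15.9, 257, 7.76, 11.1 and 286 rescaled TPM in Petiole and values above 0 elsewhere in 2 libraries only, 0.294 in Apical 1 and 0.236 in Basal 1. EVM0025659.1 had 806, 40.2, 641, 46.9, 24.7 and 672 in Petiole and at most 2.86 in the blade. EVM0020269.1 had 2144, 204, 1191, 196, 47.3 and 2443 in Petiole but 269.9 in Apical 2 and 875 in Basal 2, above 3 of the Petiole libraries. In all 3, Petiole 1, 3 and 6 lay above Petiole 2, 4 and 5 without overlap.

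Petiole 3 was the highest of the 6 Petiole libraries for 79 members (52.7%, against 23.7% of the tested transcripts) and Petiole 2 for 35 (23.3%, against 19.7%). Petiole 6, 1, 4 and 5 were highest for 13, 12, 6 and 5. The lowest library was Petiole 4 for 69 members and Petiole 2 for 33. Petiole 3 also listed the most transcripts at 0 over the whole table, 2784 against 974 in Petiole 1 and 1584, 1928, 1596 and 2543 in Petiole 2, 4, 5 and 6, and whether this bears on the members' levels was not tested.

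**Figure D4:**
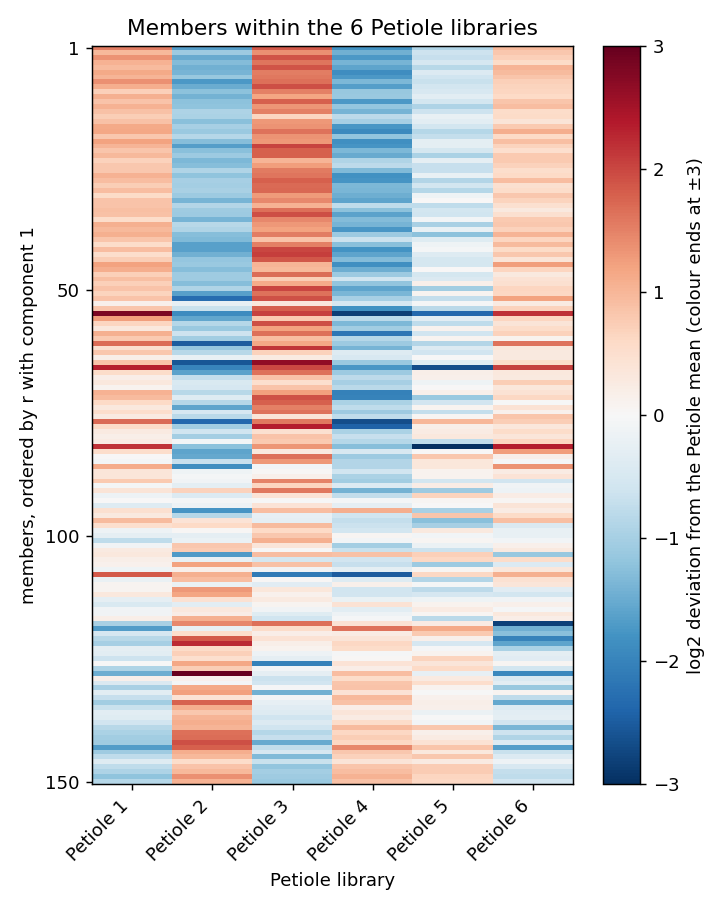
Deviation of each member in log2 units from its own mean over the 6 Petiole libraries, red above and blue below, with members ordered by their correlation with the first principal component. Most rows are red in Petiole 1, 3 and 6 and blue in Petiole 2 and 4, and the rows at the bottom show the reverse.

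The first principal component of these deviations took up 78.9% of the members' variance within Petiole, and 47.0% of that of the other 8096 tested transcripts with a Petiole mean of at least 10. Its loadings were 0.37, −0.48, 0.51, −0.49, −0.20 and 0.30 for Petiole 1 to 6. As a description over 6 libraries, 81 members had a correlation of at least 0.8 with it, 21 of −0.8 or less, and 48 lay between. Across the 150 members, which share the library and its scaling, the deviations of Petiole 1 and Petiole 6 had r = 0.85, those of Petiole 2 and Petiole 4 r = 0.69, and those of Petiole 1 and Petiole 4 r = −0.87. The same pairs had r = 0.32, 0.37 and −0.59 over the other 8096 transcripts. Of the 15 pairs of Petiole libraries, 14 had the same sign in both sets, and the exception was Petiole 3 with Petiole 6, at r = 0.47 over the members and −0.05 over the others.

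The order from high to low of library 3, 1, 6, 5, 2 and 4 was found in 34 members (22.7%) and in 1% of the other transcripts. A further 49 members correlated with EVM0000784.1 over the 6 Petiole libraries at r of 0.95 or more, as did 2.84% of the other transcripts. EVM0000784.1 was taken as the point of comparison after its values were seen, and no test was made.

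Some members of the opposite sign, chosen after their values were seen, were highest in Petiole 2, 4 and 5. EVM0014050.1 had 192, 724, 161, 642, 533 and 234 rescaled TPM in Petiole and at most 22.8 elsewhere. EVM0001991.1 had 325, 1947, 361, 1554, 1173 and 445 in Petiole, with 95.2, 118, 78.3 and 10.5 in Apical and 84.4, 108, 83.6 and 13.3 in Basal. EVM0001183.1 had 370.4, 1139, 275, 1112, 1067 and 449.7 in Petiole and 15.7, 15.9 and 19.4 in Sheath, within its blade range of 5.40 to 35.3. In each of these transcripts the lowest of Petiole 2, 4 and 5 was more than 2-fold above the highest of Petiole 1, 3 and 6. That gap was not shared by all members of the opposite sign. EVM0026150.1 (r = −0.97 with the component) had 31.4 in Petiole 5 and 23.2 in Petiole 6. EVM0009886.1 (r = −0.83) had more in Petiole 6 (1123) than in Petiole 5 (1049).

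When a single Petiole library was left out of the choice and the rule applied to the remaining 16 libraries, 135 (without Petiole 2) to 142 (without Petiole 5) of the 150 members were chosen again. The newly chosen 150 were then scored in the left-out Petiole library. This score still subtracts the Apical, Basal and Sheath levels that chose them, so only its Petiole value is apart from the rule. Its median was 4.77 in Petiole 1, 3.66 in Petiole 2, 5.13 in Petiole 3, 3.43 in Petiole 4, 4.13 in Petiole 5 and 4.73 in Petiole 6. No test was made.

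Most members were listed at 0 in each Sheath library, a region whose level the rule kept below that of Petiole. In Sheath 1, 2 and 3, 95, 98 and 101 of the 150 members (63.3%, 65.3% and 67.3%) were listed at 0, against 16.1%, 24.3% and 21.5% of all transcripts in the table. In all 3 Sheath libraries 72 members were listed at 0. In Apical 1 to 4 the members listed at 0 were 33, 35, 56 and 87, and in Basal 1 to 4 they were 38, 12, 56 and 86. Basal 2 stood lowest, and replicate 4 was close to the Sheath libraries in both blade regions. All 150 members passed the filter on low values, through the Petiole libraries that chose them.

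**Figure D5:**
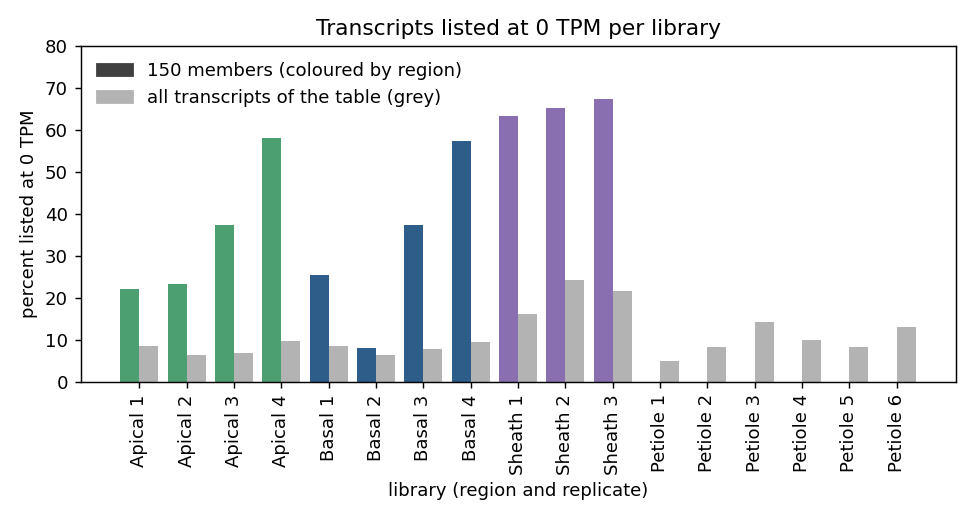
Percent of transcripts listed at 0 TPM in each library, as coloured bars for the 150 members and grey bars for the whole table. The members' bars reach 57.3% to 67.3% in Apical 4, Basal 4 and the 3 Sheath libraries and are at 0 in Petiole, while the grey bars stay between 5.02% and 24.3%.

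After Petiole, the region with the next highest level was Basal for 81 members, Apical for 38 and Sheath for 26, and 5 were above 0 in no other region. This order rested on blade replicate 2. Without Apical 2 and Basal 2 the next region was Apical for 49 members, Basal for 45 and Sheath for 42, and 14 had none. The 26 members with Sheath next had a median Sheath mean of 5.73 rescaled TPM, with a highest of 97.5 (EVM0024886.2).

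Among the 11 non-Petiole libraries, Basal 2 was the highest for 84 members. Within Basal it was the highest of the 4 for 121 members (80.7%, against 32.5% of the tested transcripts), and Apical 2 was the highest of the 4 in Apical for 83 (55.3%, against 32.1%). Apical 4 was lowest or tied for lowest in Apical for 131 members and Basal 4 in Basal for 123, ties at 0 included. Nothing is read from these counts, since 58% and 57.3% of the members were listed at 0 in Apical 4 and Basal 4. The share over all tested transcripts is not given for them. As a percent of the member's own Petiole mean, the level in Basal 2 had a median of 3.83% and in Apical 2 of 2.03%, and in both replicate 4 libraries the median was 0%.

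The blade level of replicate 2, relative to Petiole, differed with the Petiole library in which a member was highest. For the 35 members highest in Petiole 2, the level in Basal 2 had a median of 15.2% of the Petiole mean, with a range of 0.721% to 145%, and that in Apical 2 a median of 12.2%. For the 79 members highest in Petiole 3, the medians were 1.68% and 0.320%. Medians for the smaller sets highest in Petiole 1, 4, 5 and 6 (12, 6, 5 and 13 members) were 9.43%, 1.29%, 5.05% and 9.41% in Basal 2 and 5.95%, 3.51%, 5.09% and 8.01% in Apical 2. For members highest in Petiole 2, replicate 4 of the blade showed medians of 0.225% in Apical and 0.130% in Basal. Over the members, deviations of same-numbered Petiole and blade libraries had r = 0.20 (Apical) and 0.19 (Basal) in replicate 1. In replicate 2 they had 0.50 and 0.43, in replicate 3 −0.03 and −0.14, and in replicate 4 −0.39 and −0.36. Over all tested transcripts the replicate 2 values were 0.03 and 0.02. Those of replicate 1 were −0.14 and −0.10, of replicate 3 0.04 and 0.03, and of replicate 4 0.09 and 0.13. Values for Petiole and blade libraries of different numbers are not given here, so no link by number is read from these r values. The labels do not say whether libraries of the same number share a plant.

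Basal was compared with Apical by limma on all 17 libraries, with Benjamini-Hochberg adjustment over the 18606 transcripts tested. No member was called at an adjusted p under 0.05, where the background was 0% in each direction, since no transcript of the table was called. At an unadjusted p under 0.05 there were 0 members and 36 transcripts in all. This fit left Apical and Basal libraries of the same number unpaired, although their deviations correlated (r of 0.51 to 0.88). Modelling replicate number gave 0 members and 48 transcripts on all 17 libraries. On the blade libraries alone it gave 4 of 77 members and 1027 transcripts, with no adjusted p under 0.05. The total of transcripts tested in that smaller fit is not given here, so its counts are not compared. The low counts of the unpaired fit are therefore not read as a lack of difference. In that unpaired fit the members' median difference, Basal minus Apical, was 0.08 on the log2(rescaled TPM + 1) scale. It was 0.00 over all tested transcripts, and 95 members lay above 0 and 49 below.

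That direction differed between replicates. Of the 150 members, 117 were higher in Basal 2 than in Apical 2 and 22 lower, whereas 41 were higher in Basal 1 than in Apical 1 and 84 lower. In replicate 3 the counts were 54 and 51, and in replicate 4 they were 45 and 31, with the remainder equal. Among members with unequal values, the share higher in Basal was 32.8%, 84.2%, 51.4% and 59.2% in replicates 1 to 4, against 48.5% to 51.4% of the tested transcripts with unequal values.

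Sheath was compared with each blade region in the same fit, and both comparisons share the 3 Sheath libraries. The spread of a transcript was estimated from all 17 libraries, so its spread among the Petiole libraries enters these SEs and p-values. For example, EVM0012047.1 was listed at 0 in all 11 non-Petiole libraries. Its SE was still 0.79 for Basal against Apical and 0.85 for Sheath against either. Against Apical, 1 member was higher in Sheath (0.667%, background 10.1% of tested transcripts) and 3 were lower (2%, background 14.3%). Against Basal, 1 was higher (background 11.2%) and 3 lower (background 15.2%). Nothing is read from these shares, since the rule kept the members low in Apical, Basal and Sheath. The members' median level was 0 in each Sheath library and 0 to 3.76 rescaled TPM in the blade libraries. The members' median difference, Sheath minus Apical, was −0.21 against −0.20 over all tested transcripts, and Sheath minus Basal it was −0.28 against −0.21. These differences are on the log2(rescaled TPM + 1) scale, which understates the change of low transcripts.

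The member called higher in Sheath was EVM0024886.2, one of the steadiest in Petiole. It had 38.5, 72.2 and 182 rescaled TPM in Sheath, 4.32, 43.7, 2.57 and 0 in Apical, and 3.92, 67.2, 3.49 and 0 in Basal. Replicate 2 of Apical and of Basal lay inside the Sheath range and the other 6 blade libraries below it. The log2 difference was 3.91 (SE 1.17) against Apical with a limma adjusted p of 0.0231, and 3.70 (SE 1.17) against Basal with an adjusted p of 0.028.

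Every member called lower in Sheath was listed at 0 in Sheath 3, but EVM0009886.1, described below, reached 73.8 rescaled TPM in Sheath 1. EVM0015590.1, the abundant Petiole transcript above, was listed at 0 in the 3 Sheath libraries and at 0 to 1293 rescaled TPM in the blade, with limma adjusted p of 0.0384 against Apical and 0.0318 against Basal. EVM0018814.2 was also listed at 0 in all 3, with 4.28, 2.39, 4.09 and 1.42 in Apical, 1.54, 5.44, 2.56 and 2.96 in Basal, and 135, 53.4, 267, 16.7, 31.8 and 108 in Petiole. Its adjusted p was 0.0462 against Apical and 0.0422 against Basal. No fold is given for either, since the Sheath values are all 0.

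EVM0012831.1 was called lower in Sheath than in Apical, with 6.35, 4.50 and 0 rescaled TPM in Sheath, 19.8, 26.4, 11.1 and 12.9 in Apical and 21.7, 32.2, 10.7 and 4.24 in Basal. Sheath and Apical did not overlap, and the log2 difference was −2.36 (SE 0.83) with a limma adjusted p of 0.0491, whereas against Basal it was 0.0728. EVM0009886.1 was called lower in Sheath than in Basal, with 73.8, 0 and 0 in Sheath against 44.7, 185, 45.4 and 18.9 in Basal, and the groups overlapped through Sheath 1. Its log2 difference was −3.65 (SE 1.20) with an adjusted p of 0.0337, and 0.0855 against Apical.

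The calls lay near the threshold, and which members were called varied with the libraries used. Over the 17 fits that each left out a library, every one of these differences kept its sign. EVM0024886.2 ranged from 3.10 (without Apical 4) to 4.91 (without Apical 2) against Apical and from 2.82 to 4.84 against Basal. EVM0012831.1 ranged from −2.93 (without Sheath 1) to −1.46 (without Sheath 3), and EVM0009886.1 from −5.77 (without Sheath 1) to −2.61 (without Sheath 3).

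The number of calls also varied. Over the same 17 fits the background was 17.6% to 26.3% of tested transcripts against Apical and 19.2% to 27.9% against Basal. Against Apical 0 members were called without Apical 3, and 1 without Apical 1. Without Petiole 1, Petiole 6, Basal 1 or Basal 3, 2 were called, both among the original 4. Without Apical 2 there were 2 calls, of which 1 was original, and without Apical 4 there were 8, of which 2 were. Without Sheath 2 or Sheath 3 there were 2 and 1, none of them original.

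Against Basal 0 members were called without Basal 3, 1 without Basal 1 and 2 without Basal 2, of which 1 was original. Without Sheath 2 there were 3 calls, none of them original, and without Sheath 3 the single call was not among the original 4. Without Apical 4, 7 were called and without Basal 4, 12, of which 4 and 2 were original. Without the 2 blade libraries of replicate 4, 19 members were called in each comparison, 1 higher and 18 lower. The background was then 26.2% of tested transcripts against Apical and 28.8% against Basal. Without the blade libraries of replicate 2, 4 were called in each, 3 higher and 1 lower (background 18.9% and 20.3%). Of these 4, 2 were original in each. On TPM as deposited no member was called higher in Sheath, with 9 and 10 lower (background 37.1% and 40%, both directions). The median of all tested transcripts moved to −0.79 against Apical and −0.82 against Basal.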

How the data were processed

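The values of the 17 taro libraries are TPM as the authors deposited them. The submitters' processing notes name Salmon 1.10.0. Its index, the source of the transcript models and any filter were not stated in the sources used here. Every transcript in the table reached at least 2.00 TPM in some library. No column was left unmatched to a library, and the tables of the other species were not used.

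Columns were rescaled by median of ratios. A linear model on log2(rescaled TPM + 1) was fitted to all 17 libraries with limma 3.58.1 in R 4.3.3, with moderated variances, a mean-variance trend and no replicate block, over the 18606 transcripts with at least 1 rescaled TPM in at least 3 libraries. The threshold for a call was an adjusted p (Benjamini-Hochberg) of 0.05. The procedure was also run on simulated data, but the outcome is not given here and nothing is read from it. Only the 3 contrasts without Petiole were tested.

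Between Apical and Basal libraries of the same number, deviations from region means correlated at r of 0.51 to 0.88. These numbers were therefore taken to link the blade libraries. Sheath correlated with either at 0.0124 to 0.0687, so its numbers were not taken to link it to the blade. The labels do not say which libraries share a plant, and these correlations cannot settle it. With the replicate block, Basal against Apical still gave 0 calls.

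Transcripts were named by rule: the 10 highest scores, the 5 highest Petiole means, the 3 smallest and 3 largest Petiole SDs, the first 3 called in each direction and contrast, and the 3 transcripts on either side of the set's edge. The members and lists were chosen with earlier results of these data known. The marker lists drawn up for taro cell types were not used, since identifiers carry no gene names here. Alternatives were TPM as deposited, another pseudocount, no filter, other minimum levels, region medians, a replicate block, fits of the compared regions alone and leaving out each library. Leaving out both blade libraries of replicate 2 or 4, and the block in the smaller fits, were added after seeing the data.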

Additional observations from a re-analysis of the deposited data

Results flagged for a closer look

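Among the named transcripts, 8 of 72 groups (11.1%) held a library far from the others of its region by Dixon's criterion. The criterion's chance rate of about 5% does not apply where the other values are tied at 0. Any value above 0 then meets it, so no excess is read from the 11.1%. In 7 of the 8 groups the other 3 blade libraries were listed at 0. These were EVM0020255.1 at 2.62 rescaled TPM in Apical 1 and at 4.32 in Basal 2, EVM0021963.1 at 7.46 in Apical 1, EVM0027070.1 at 8.23 in Apical 1, EVM0014157.1 at 0.294 in Apical 1 and 0.236 in Basal 1, and EVM0025659.1 at 1.89 in Apical 1. The remaining group was EVM0016941.1 in Petiole, where Petiole 4 was lowest at 2836 rescaled TPM and its gap to the next library was 0.645 of the whole range on the log2 scale. Of the 5 flagged Apical groups, all were set apart by Apical 1.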

How the results depend on the processing

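The count of 0 called members for Basal against Apical held under every alternative run, the replicate block among them. For Sheath against Apical, 4 members were called, and 9 on TPM as deposited, 10 with a pseudocount of 0.1, 13 with the replicate block, 1 in the fit of the compared regions alone, 13 with the block in that fit and 19 without the blade libraries of replicate 4. For Sheath against Basal, 4 were called, and 10, 7, 12, 1, 16 and 19 under the same settings. Of all tested transcripts, 24.4% were called against Apical in the main fit, and 37.1%, 25.5%, 29.9%, 15.8%, 11.6% and 26.2% under those settings. Against Basal the shares were 26.4%, and 40%, 27.3%, 31.7%, 16.8%, 16.2% and 28.8%. No result about the members is read from these counts. The smaller fits tested only 61 or 62 of the 150 members, and Sheath numbers did not pair with blade numbers in the check of deviations. Leaving out each library gave 0 to 8 calls against Apical and 0 to 12 against Basal. The shares of all tested transcripts were then 17.6% to 26.3% and 19.2% to 27.9%. Other causes of these changes were not tested. No named call reversed its direction. Under 25 alternatives, EVM0024886.2 lost its call in 8 against Apical and 9 against Basal (adjusted p 0.000285 to 0.089 and 0.000273 to 0.103), EVM0015590.1 in 7 and 7 (0.000708 to 0.112 and 0.000324 to 0.0948), EVM0018814.2 in 13 and 11 (0.000401 to 0.104 and 0.000352 to 0.122), EVM0012831.1 in 14 (0.0113 to 0.237) and EVM0009886.1 in 9 (0.000263 to 0.163).

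When the rule was applied again, 137 of the 150 members were kept on TPM as deposited, 102 with a pseudocount of 0.1, 138 with a minimum mean of 20, 123 with region medians, and at least 131 with a single library left out. Of the 150, 138 to 145 did not overlap with the other libraries under the alternatives run. The share of all tested transcripts was 6.91% with all libraries and is not given for the alternatives. The choice of members used this contrast, so nothing is read from these counts. Differences at low TPM are limited by the unknown depth.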
